A study of Drosophila melanogaster with 3 samples.

Results

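The 6 genes GATAe, GATAd, srp, fkh, peb and byn, which encode transcription factors of the gut and endoderm, were examined for binding by tap in Drosophila melanogaster embryos. They were chosen by name, and are 6 of the 13945 protein-coding genes of the annotation. Each peak in 5 deposited lists was given to the protein-coding gene whose transcription start site (TSS) lay nearest to the peak summit. The lists were 1 for each replicate and 1 for the pooled replicates, each of 30000 peaks, and a thresholded set of 4336 peaks. The authors made that set with the irreproducible discovery rate, a measure of reproducibility between replicates. It holds the 4336 strongest peaks of the pooled list, and a peak in it need not be strong in every replicate. Males and females were pooled as whole embryos, aged 6 to 16 h by the sample source label, from a transgenic line that stably expressed tap with eGFP at its C-terminus. The fusion was recovered by chromatin immunoprecipitation with an antibody against GFP, and library fragments were of 200 to 800 bp. There was 1 group of 3 biological replicates, all with the same transgene, stage and antibody, and control libraries were not analysed here. Because embryos were whole, the lists do not show in which cells a site was bound.

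The gut of the fly embryo forms from the endoderm, which becomes the midgut, and from ectoderm at both ends, which becomes the foregut and the hindgut. The GATA factor Serpent, encoded by srp, sets endodermal fate and also acts in fat body and blood cell precursors, and GATAe, a GATA factor gene next to srp, acts after it in the midgut. GATAd encodes a further GATA factor. The FoxA factor Fork head, from fkh, acts in the foregut, hindgut and salivary glands, and Brachyenteron, from byn, is the T-box factor of the hindgut, related to vertebrate Brachyury. Hindsight, the zinc-finger factor encoded by peb, is made in the midgut and in the amnioserosa, where it is needed for germ band retraction. The immunoprecipitated factor, tap, is a basic helix-loop-helix (bHLH) protein of the neurogenin family, which is known best from neural development. Proteins of the bHLH class recognise the E-box, CANNTG, where N is any base.

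Thresholded peaks lay near 5 of the 6 genes, and byn had none. By nearest TSS, 19.0% of all protein-coding genes had at least 1 of the 4336 thresholded peaks. The 5 genes held 9 of these peaks, 4 at fkh, 2 at srp and 1 each at GATAe, GATAd and peb. At least 2 peaks were found at 6.01% of all genes, and at least 4, the number at fkh, at 1.35%. The single peak within 500 bp of a TSS, a position called promoter-proximal below, was at fkh, whereas 41.2% of all thresholded peaks were promoter-proximal and 11.4% of all genes had been given such a peak. The rest were 4 intergenic peaks, 3 peaks inside annotated noncoding transcripts and 1 intronic peak. Of all thresholded peaks 16.6% were intergenic and 39.4% intronic. Noncoding transcripts, outside promoters and outside protein-coding transcripts, held 1.48% of all thresholded peaks. The 3 of 9 seen here, classed the same way, is a larger share, on a small count. With 1 group and 1 thresholded list the design gives no test of these counts. They depend on the assignment: with the TSSs of noncoding genes included, 3 of the 6 genes had a thresholded peak, and with peaks required within 1000 bp of the gene body, 2 did. The share of all genes under these other assignments is not given here, so the 19.0% does not apply to them.

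The sequences of 201 bp about the 9 thresholded summits are given so that each site can be read beside its values, with the best pooled-list peak of byn and the promoter peak of peb as sites that did not reach the thresholded set. All are plus-strand dm6 sequence, read from the RefSeq copy of that assembly, 5′ to 3′ with the summit at the centre, and capitals mark each match to the E-box.
GATAe, upstream peak, chr3R:16006024-16006224: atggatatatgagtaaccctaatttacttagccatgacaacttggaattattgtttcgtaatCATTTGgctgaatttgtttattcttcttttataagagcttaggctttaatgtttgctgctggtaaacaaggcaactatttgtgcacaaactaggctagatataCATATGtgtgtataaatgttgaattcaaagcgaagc
GATAd, intronic peak, chr2L:10335034-10335234: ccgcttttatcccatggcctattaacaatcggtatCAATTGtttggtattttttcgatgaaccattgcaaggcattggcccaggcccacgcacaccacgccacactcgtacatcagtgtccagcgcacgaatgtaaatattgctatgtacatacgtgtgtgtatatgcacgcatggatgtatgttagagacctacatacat
srp, farther upstream peak, chr3R:15983668-15983868: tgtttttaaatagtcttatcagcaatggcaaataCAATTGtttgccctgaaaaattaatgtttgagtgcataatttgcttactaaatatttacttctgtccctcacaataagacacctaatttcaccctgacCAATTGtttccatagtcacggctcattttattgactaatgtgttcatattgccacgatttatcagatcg
srp, nearer upstream peak, chr3R:15984542-15984742: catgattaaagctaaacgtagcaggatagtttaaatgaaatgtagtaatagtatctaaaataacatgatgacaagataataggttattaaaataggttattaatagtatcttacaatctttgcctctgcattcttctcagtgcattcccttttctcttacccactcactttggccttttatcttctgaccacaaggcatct
fkh, promoter peak, chr3R:28585376-28585576: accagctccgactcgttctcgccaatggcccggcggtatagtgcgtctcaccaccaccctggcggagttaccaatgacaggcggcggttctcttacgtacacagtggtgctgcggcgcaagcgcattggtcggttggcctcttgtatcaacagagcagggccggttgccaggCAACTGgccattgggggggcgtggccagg
fkh, nearer downstream peak, chr3R:28573680-28573880: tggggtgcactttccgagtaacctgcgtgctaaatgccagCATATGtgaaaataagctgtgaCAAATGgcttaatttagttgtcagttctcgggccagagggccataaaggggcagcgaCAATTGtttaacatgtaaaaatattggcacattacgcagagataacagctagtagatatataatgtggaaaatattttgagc
fkh, farther downstream peak, chr3R:28570919-28571119: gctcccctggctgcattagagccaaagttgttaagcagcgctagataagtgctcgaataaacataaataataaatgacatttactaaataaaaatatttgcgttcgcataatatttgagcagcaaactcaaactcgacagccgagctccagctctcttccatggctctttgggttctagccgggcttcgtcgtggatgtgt
fkh, upstream peak, chr3R:28586978-28587178: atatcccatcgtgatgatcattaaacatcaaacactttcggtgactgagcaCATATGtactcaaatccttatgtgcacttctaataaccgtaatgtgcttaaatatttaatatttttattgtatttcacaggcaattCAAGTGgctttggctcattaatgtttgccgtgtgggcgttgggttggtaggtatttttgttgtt
peb, upstream peak, chrX:4609799-4609999: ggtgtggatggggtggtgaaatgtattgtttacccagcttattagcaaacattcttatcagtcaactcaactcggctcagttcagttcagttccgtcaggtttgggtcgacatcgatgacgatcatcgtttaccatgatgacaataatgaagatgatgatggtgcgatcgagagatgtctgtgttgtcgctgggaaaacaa
peb, promoter peak of the pooled list, chrX:4617421-4617621: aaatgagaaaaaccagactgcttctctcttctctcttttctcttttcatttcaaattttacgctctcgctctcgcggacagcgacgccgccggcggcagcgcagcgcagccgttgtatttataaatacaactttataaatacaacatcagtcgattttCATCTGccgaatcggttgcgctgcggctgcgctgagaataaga
byn, intronic peak of the pooled list, chr3L:11929924-11930124: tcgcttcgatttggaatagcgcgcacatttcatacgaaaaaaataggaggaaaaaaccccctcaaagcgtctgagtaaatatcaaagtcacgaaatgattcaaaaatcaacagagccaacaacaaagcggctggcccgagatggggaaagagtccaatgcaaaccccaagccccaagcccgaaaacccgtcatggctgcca

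The strongest site of the 6 genes was the promoter of fkh, the FoxA gene (FBgn0000659, 3R from 28580976 to 28585264, minus strand). Its peak ran from 28585432 to 28585563, with the summit 212 bp upstream of the nearest fkh TSS and outside any annotated gene. The signal, the value the authors' peak caller gave to each peak, was 454.2, which placed it at rank 860 of the 4336 thresholded peaks, whose signals ran from 153 to 4027 with a median of 248. Its rank by signal was 752, 1936 and 557 in the lists of replicates 1, 2 and 3. The signals there were 194, 113 and 139, on scales that differ between lists. It was thus among the strongest 4336 peaks of all 3 lists.

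Another 3 thresholded peaks were assigned to fkh, and 2 of them lay far beyond the 3′ end of the gene. The nearer of these had its summit 11332 bp downstream of the TSS (3R from 28573694 to 28573822, signal 210.2, rank 2751) and ranked 3652, 2602 and 2280 in replicates 1, 2 and 3. The farther one was 14093 bp downstream (3R from 28570952 to 28571048, signal 171.0, rank 3718) and ranked 4514, 5174 and 2501. Both were intergenic, and the next nearest protein-coding TSS was 25508 bp away, at Noa36, for the former and 26202 bp away, at mIF2, for the latter. The last fkh peak lay 1814 bp upstream, in the noncoding gene lncRNA:CR43126 (3R from 28586890 to 28587265, signal 157.8, rank 4149). It ranked 9533, 3051 and 4677, but its match in replicate 1 had its summit 191 bp away, 13 bp from another pooled-list peak, to which it was matched too. Of the 4 fkh peaks, the promoter peak and the nearer downstream peak were among the strongest of every replicate. The promoter and both downstream intervals were narrow, 132, 129 and 97 bp wide, where the median thresholded peak was 376 bp wide and 47.0% were narrower than that.

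The GATA factor genes srp and GATAe are neighbours on 3R, with 5019 bp between them, and both had thresholded peaks upstream. The gene srp (FBgn0003507, 3R from 15986152 to 16004085, plus strand) had a pair of intergenic peaks whose summits were 874 bp apart. The stronger was 2384 bp upstream of the first TSS (3R from 15983580 to 15983955, signal 258.6, rank 2039), and the weaker 1510 bp upstream (3R from 15984454 to 15984829, signal 166.9, rank 3863). The stronger ranked 1710, 4911 and 1032 in replicates 1, 2 and 3, and the weaker 3469, 7540 and 3869. The signals of the stronger were 119, 63.9 and 97.8. Replicate 2 placed both below its strongest 4336 peaks. The other lists held both among their strongest.

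The peak of GATAe, the midgut GATA factor gene (FBgn0038391, 3R from 16009105 to 16019133, plus strand), lay between the 2 genes, 2981 bp upstream of the first GATAe TSS (3R from 16005936 to 16006311, signal 259.1, rank 2031). It was inside lncRNA:CR42839, a noncoding gene whose TSS was nearer, at 1949 bp, and the nearest srp TSS was 7035 bp away. It ranked 1833, 2740 and 2175 in replicates 1, 2 and 3, the most even of the 9 peaks, with a mean of 2249 ± 458 (SD, n = 3), and its signals were 114, 91.2 and 61.7. Across the srp and GATAe locus, 22356 bp separated the first and last thresholded summits, and the pooled list placed 8 peaks from the first to the last. The TSS-proximal sites of GATAe were weaker. In the pooled list its second start site had a peak with its summit 452 bp upstream at rank 5956 and its first start site one 284 bp downstream at rank 7989. Both were present in all 3 replicate lists, at ranks 6551, 14096 and 5611 and at ranks 10342, 12932 and 6769.

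GATAd (FBgn0032223, 2L from 10333734 to 10339185, plus strand) was the one gene whose thresholded peak lay in its own intron. The summit was 1220 bp downstream of the nearest TSS (2L from 10334946 to 10335321, signal 204.9, rank 2851), and the ranks in replicates 1, 2 and 3 were 2211, 4022 and 3300, all among the strongest. The signals were 101, 72.3 and 48.1. The pooled list added a pair of peaks at the start sites of the gene, at ranks 6998 and 9930. The stronger of these, 104 bp upstream, was uneven, at ranks 17202, 4752 and 6410. Its match in replicate 3 had its summit 145 bp away, nearer to the weaker peak of the pair, to which it was matched too.

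For peb, the gene of Hindsight (FBgn0003053, X from 4617564 to 4627206, plus strand), the thresholded peak was 7665 bp upstream and inside the noncoding gene lncRNA:CR32773 (X from 4609711 to 4610086, signal 166.4, rank 3878). It ranked 2373 and 2997 in replicates 1 and 3 but 20243 in replicate 2, with signals of 96.5, 50.7 and 26.3 in that order. The promoter of peb fell just short of the thresholded set: its peak, with the summit 43 bp upstream of the TSS and a signal of 138.6, was at rank 4998 of the pooled list. It was present in every replicate list, at ranks 6015, 7023 and 9954, and in replicate 2 it was the strongest peb peak.

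For byn, the hindgut T-box gene (FBgn0011723, 3L from 11927693 to 11935919, plus strand), the pooled list held 1 weak peak. It was 2331 bp downstream of the TSS, in an intron of byn that also lies within CG44837, with a signal of 48.52 at rank 22072 of 30000. The list of replicate 1 had 2 byn peaks, the better at rank 20600, that of replicate 3 had 2, the better at rank 24853, and that of replicate 2 had none. The other peak of replicate 1 was 12 bp upstream of the TSS, at rank 25630. In the full pooled list 51.7% of protein-coding genes had no peak at all, and 48.3% had at least 1, as byn did. Since each list was filled to 30000 peaks, ranks this low carry little weight.

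**Figure D1:**
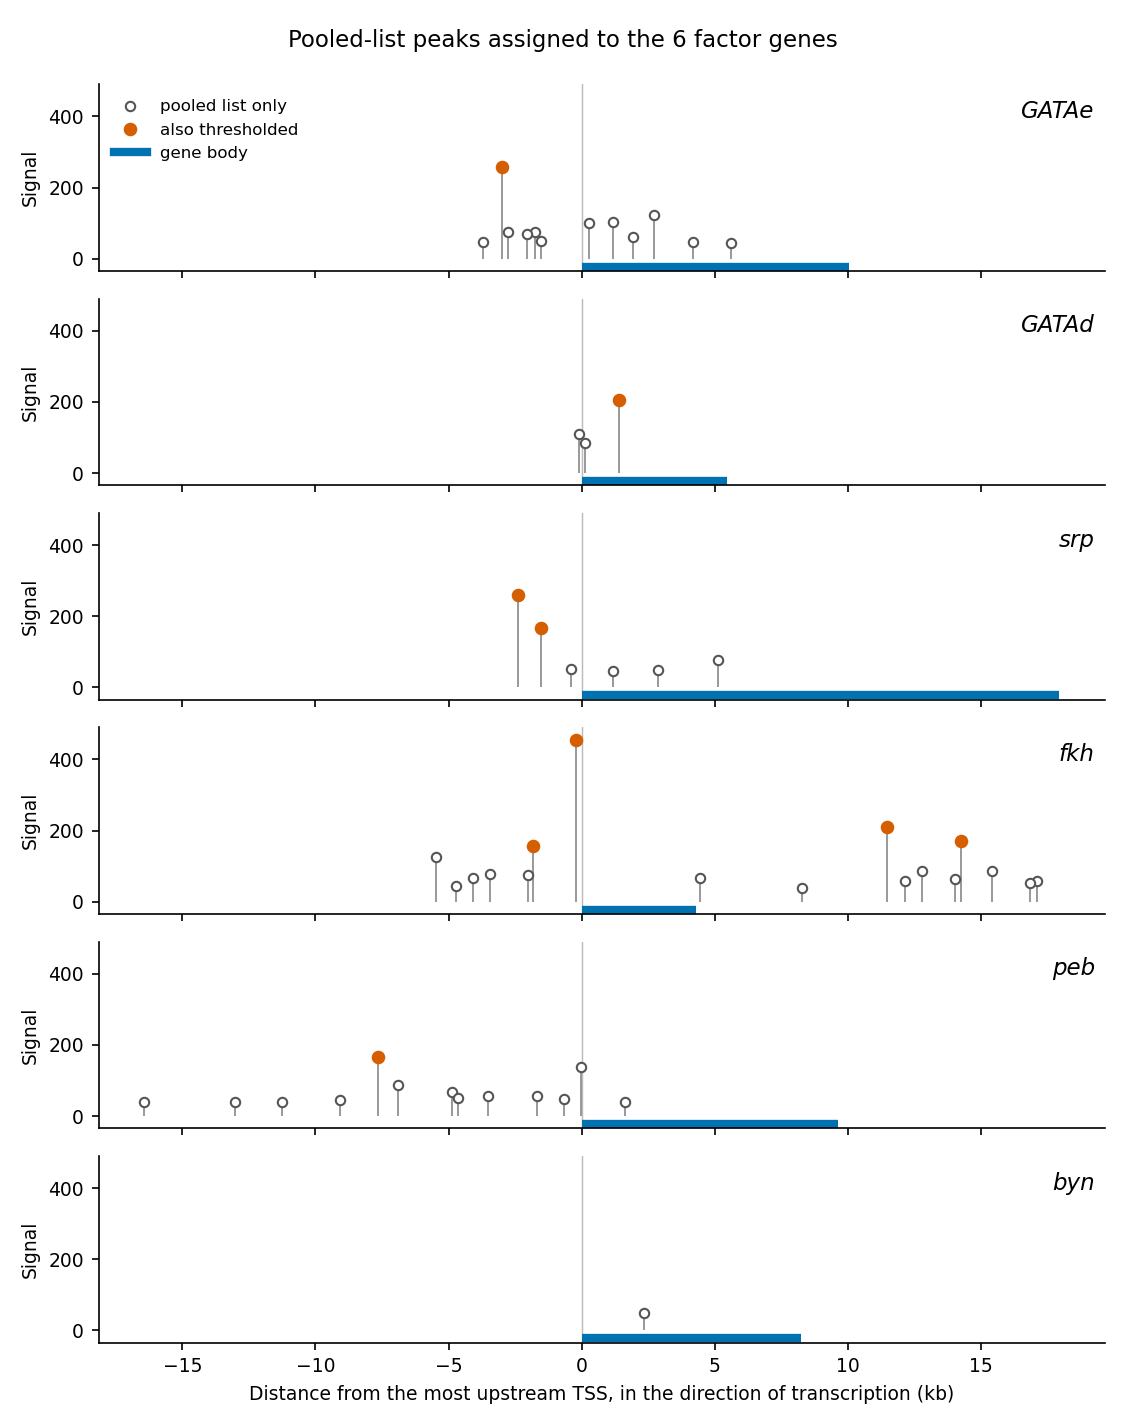
Signal of every peak of the pooled list assigned to each of the 6 genes (vertical axis, authors' signal value) against its distance in kb from the most upstream TSS, with positive values in the direction of transcription. Filled points are also in the thresholded set, open points are not, and the blue bar is the gene body. The tallest point is the fkh promoter peak at 454.2, both thresholded srp peaks and the GATAe peak stand upstream of the gene, and byn has a single open point.

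By the rank of the best peak in each replicate list, the order was fkh (mean rank 1082 ± 746, SD, n = 3), GATAe (2249 ± 458), srp (2551 ± 2072), GATAd (3178 ± 912), peb (4131 ± 2524) and byn, which had no peak in 1 list. No 2 neighbours among the first 5 stood apart beyond these spreads except fkh and GATAe, whose means differed by more than either SD, and fkh ranked ahead of the other 5 genes in each list. The genes share the 3 lists, so the SDs do not measure differences within a list. In each list GATAe also ranked ahead of GATAd and peb, and srp ahead of peb. The order rests partly on replicate 2: without it the mean ranks were 654 for fkh, 1371 for srp, 2004 for GATAe, 2685 for peb and 2755.5 for GATAd, so that srp came before GATAe and peb before GATAd. Among the strongest 4336 peaks of a list, 5 of the 6 genes had a peak in replicate 1, 3 in replicate 2 and 5 in replicate 3, a mean of 4.33 ± 1.15 (SD, n = 3). The shares of all genes were 19.2%, 19.5% and 19.1%. In replicate 2, srp and peb were missing.

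Of the 6 genes, 5 had a peak in every replicate list, as did 38.3% of all genes. All 9 thresholded peaks were found in every replicate list, as were 89.9% of all thresholded peaks, counting summits within 200 bp of each other as the same peak. Within 100 bp, a distance chosen after the data were seen, 7 of the 9 were, beside 77.8% of all. The upstream fkh peak, matched at 191 bp in replicate 1, and the nearer srp peak, matched at an offset of -125 bp in replicate 2, were the ones lost. Among the strongest 4336 of every replicate were 4 of the 9, beside 49.4% of all. These 4 were the GATAe and GATAd peaks and the promoter and nearer downstream peaks of fkh. Keeping thresholded peaks found among the strongest of replicates 1 and 3, without replicate 2, left 7 peaks at all 5 genes. Without replicate 1, and equally without replicate 3, 4 peaks at 3 genes were left, since both of these settings require the peak to be strong in replicate 2, where those of srp and peb were not. The share of all genes left by such settings is not given here.

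Replicate 2 gave the lowest rank of the 3 lists to the best peak of each of the 5 genes with a peak in every list, fkh, GATAe, srp, GATAd and peb. Over all 2496 genes with a thresholded peak and a peak in every list, the best peak ranked lowest in replicate 2 for 32.2%, in replicate 1 for 27.9% and in replicate 3 for 39.9%. By peak, 7 of the 9 thresholded peaks ranked lowest in replicate 2, 2 in replicate 1, of which 1 is the upstream fkh peak with its distant match, and 0 in replicate 3, where the shares of 3898 thresholded peaks found in every list were 31.6%, 27.9% and 40.5%. GC content moved with this over the whole set. The median GC content at the summit was 27.7% for peaks lowest in replicate 3 and 33.7% for those lowest in replicate 1 and in replicate 2, and it was 33.7% for the 9. Its part in the pattern at these genes was not tested.

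**Figure D2:**
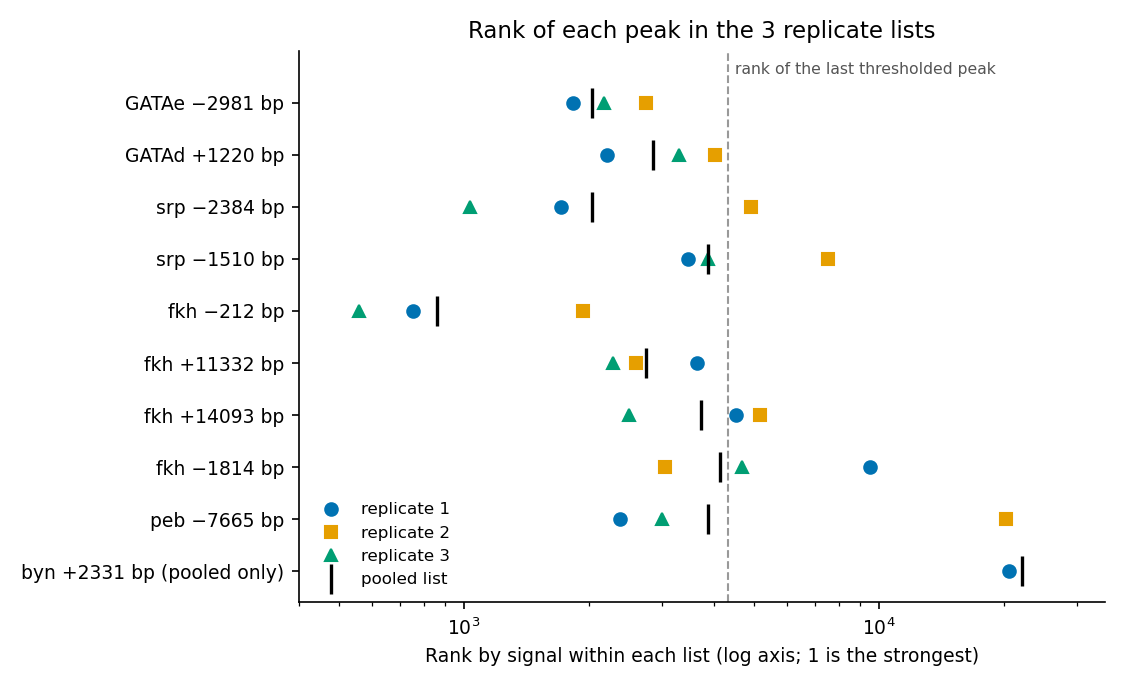
Rank by signal of the 9 thresholded peaks and of the best byn peak in each replicate list (coloured markers) and in the pooled list (black bars), on a log axis where 1 is the strongest. Labels give the gene and the distance of the summit from its nearest TSS, minus for upstream, and the dashed line is at rank 4336. The peb peak is split between 2373 and 20243, and the GATAe markers lie closest together.

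The genes differed in how many peaks they drew, and also in how much genome was nearest to their start sites. In the pooled list fkh had 17 peaks, peb 13, GATAe 12, srp 6, GATAd 3 and byn 1. At least as many were found at 2.24% of all genes for fkh, 3.51% for peb, 4.01% for GATAe, 10.8% for srp and 22.9% for GATAd. The replicate lists gave 16.0 ± 1.73 peaks for fkh, 10 ± 3.61 for peb, 11 for GATAe in each list, 6.0 ± 1.73 for srp, 2.33 ± 0.577 for GATAd and 1.33 ± 1.15 for byn (mean ± SD, n = 3). The length of genome nearest to the TSSs of the gene was 29.3 kb for peb, 27.3 kb for fkh, 22.7 kb for srp, 15.1 kb for GATAe, 7.1 kb for byn and 4.1 kb for GATAd, against a median of 4.25 kb over all genes.

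Per 10 kb of that length the pooled list held 7.96 peaks at GATAe, 7.35 at GATAd, 6.22 at fkh, 4.44 at peb, 2.64 at srp and 1.42 at byn, and 2.24 over the chromosome arms as a whole. The value for GATAd was close to that for GATAe but rests on 3 pooled peaks. Of these, the 2 at promoters overlap and share 1 match in replicate 3, and replicates 2 and 3 held 2 GATAd peaks each. Some pooled intervals also overlapped at GATAe, fkh and peb, so their densities count overlapping peaks too. The density at srp was near that of the whole genome, and that at byn was below it. For thresholded peaks the 6 genes together had 0.853 per 10 kb and the arms 0.324. A long stretch of nearest genome went with a peak in general: 36.6% of genes nearest to at least 10 kb had a thresholded peak and 13.2% of the others. All 4 of the longer genes here had one, fkh, peb, srp and GATAe, and 1 of the 2 shorter ones, GATAd. The part of this length in the count of 5 of 6 was not tested.

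**Figure D3:**
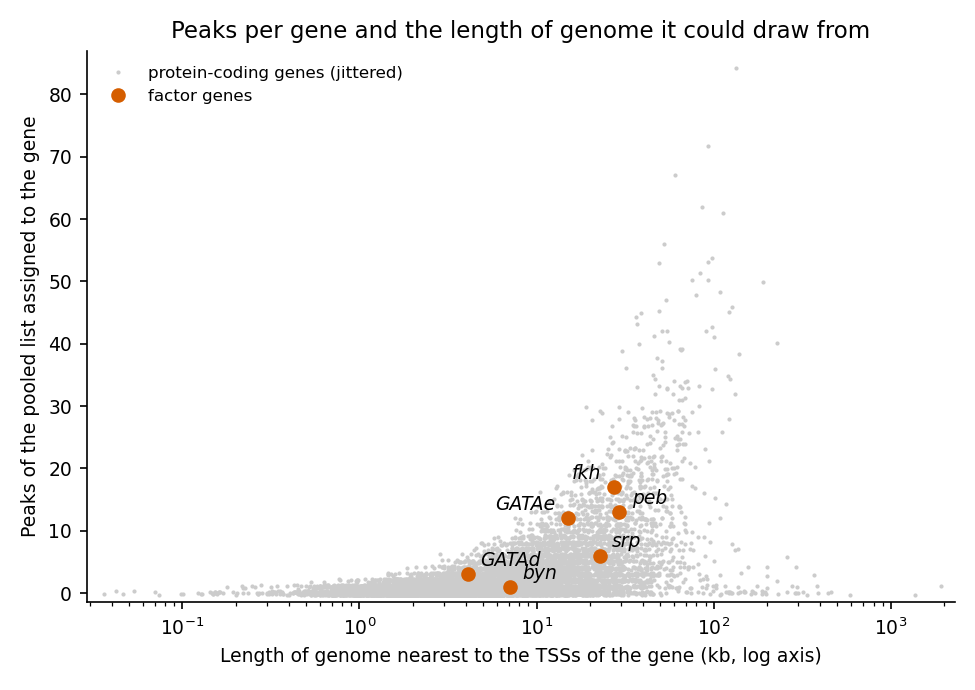
Number of pooled-list peaks assigned to each protein-coding gene (vertical axis, grey points with vertical jitter) against the length of genome nearest to its TSSs in kb (log axis), with the 6 factor genes in orange. The peak count of fkh is 17 at 27.3 kb and that of byn 1 at 7.1 kb.

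Of the 52 pooled peaks of the 6 genes, 19 were in every replicate list (36.5%), against 31.1% of all pooled peaks. For the 43 below the thresholded set the figure was 10 (23.3%), against 21.2%. Both shares are near those of the lists as a whole. None of the 52 lay in a coding exon or a UTR outside promoter windows, 17 were intergenic, 17 in noncoding transcripts, 10 in introns and 8 at promoters. Over all pooled peaks, 1.61% were in coding exons, 0.83% in 5′ UTRs and 2.5% in 3′ UTRs. The absence of such peaks among the 52 is near these small shares. Of all pooled peaks 23.5% were intergenic, 1.88% in noncoding transcripts, 44.5% in introns and 25.2% at promoters. By gene, 7 of 17 were in every list at fkh, 6 of 12 at GATAe, 2 of 13 at peb, 2 of 6 at srp, 2 of 3 at GATAd and 0 of 1 at byn. A replicate peak could be matched to more than 1 pooled peak, as happened at fkh, GATAe, GATAd and peb. These are therefore not counts of separate replicate peaks.

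Distances from the TSS ranged from 212 to 14093 bp over the 9 thresholded peaks, with a median of 2384 bp. The median over all thresholded peaks was 1144.5 bp. More than 2000 bp from the TSS were 5 of the 9, beside 40.0% of all, and more than 10000 bp were 2, both at fkh, beside 12.4%. Upstream of the TSS lay 6 of 9, beside 56.3%. In 3 cases, at GATAe, fkh and peb, the TSS of a noncoding gene was nearer than that of the assigned gene. The share of all thresholded peaks with a nearer noncoding TSS is not given here.

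The fkh promoter peak was unusual in base composition. Its GC content in the 101 bp about the summit was 59.4%, where the 4336 thresholded peaks had a median of 30.7% (quartiles 25.7% and 37.6%) and 0.761% of them had as high a value. Among promoter-proximal peaks alone, 1.23% did. Its summit was 25.2 percentage points richer in GC than the windows 500 bp to each side, which had 34.2%. The long runs of g and c in its printed sequence show the same. The next highest was the GATAd intronic peak, with 50.5% at the summit and 43.1% in the flanks.

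At the other sites the summit was mostly poorer in GC than its surroundings, as in the set as a whole. A lower GC content at the summit was found at 6 of the 9 peaks, beside 79.8% of all. The steepest fall was at the stronger srp peak, from 50% in the flanks to 32.7% at the summit. The nearer srp peak had the lowest summit value, 29.7%, and the nearer downstream fkh peak went from 52.5% to 40.6%. The peb peak was flat, at 42.6% and 43.1%. The median difference over the 9 was -6.93 percentage points, and that over all thresholded peaks -10.9.

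**Figure D4:**
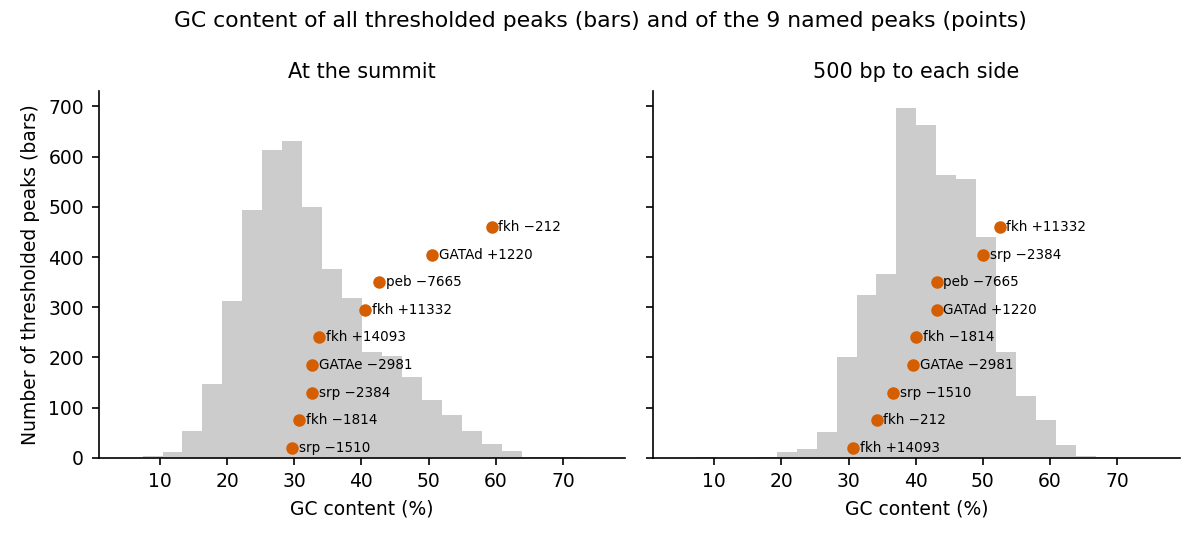
Distribution of GC content over the 4336 thresholded peaks (grey bars, number of peaks) in 101 bp about the summit (left) and in the windows 500 bp to each side (right). Orange points give the 9 peaks of the factor genes at their GC content, spread vertically for legibility only, with the gene and signed distance in bp from the TSS. The fkh promoter peak is at 59.4% on the left and 34.2% on the right.

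E-boxes were present within 100 bp of 6 of the 9 summits, beside 59.8% of all thresholded peaks. The nearer downstream fkh peak had 3, the most of the 9, with CATATG 57 bp, CAAATG 35 bp and CAATTG 22 bp from the summit, and 7.17% of all peaks had at least 3. The GATAe peak held CATTTG at 35 bp and CATATG at 68 bp, the stronger srp peak held CAATTG at each side of the summit, and the upstream fkh peak held CATATG at 46 bp and CAAGTG at 40 bp. The fkh promoter peak had a single CAACTG, 75 bp from the summit, and the GATAd peak a single CAATTG. In the windows of the nearer srp, farther downstream fkh and peb peaks there was none. The pooled-list promoter peak of peb held CATCTG, and the byn peak none. The form CATATG, itself a CANNTG, was in 3 of the 9 windows, beside 8.35% of all. CAGCTG was in none of the 9, beside 7.24%. Within 50 bp of the summit, E-boxes were at 4 of the 9, beside 33.8% of all, and CATATG at 1, beside 4.29%.

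Motifs of the factors that these genes encode were searched in the same windows on both strands. The GATA motif GATAAG was in 3 of the 9, at the stronger srp peak, the farther downstream fkh peak and the peb peak, and in 12.0% of all thresholded peaks. The forkhead motif TGTTTAC was in 2, at GATAe and peb, beside 6.46%. The T-box motif AGGTGT, whose reverse complement ACACCT can overlap the E-box CACCTG, was in 1, at the stronger srp peak, beside 5.42%. The repeat motif GAGAG was in 2, at the farther downstream fkh peak and the peb peak, beside 23.2%. Within 50 bp of the summit GATAAG was left at 1 peak, beside 6.18% of all, TGTTTAC at 1, beside 3.83%, AGGTGT at 1, beside 2.33%, and GAGAG at 0, beside 10.7%. A match shows only that the letters are present in the window.

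Related genes were then counted in 10 lists, since srp, fkh and byn belong to families and act within gut, salivary gland, blood and amnioserosa programmes. Of 65 genes matched, each counted once, 25 had a thresholded peak (38.5%), beside the 19.0% of all genes. Their median length of nearest genome was 15.8 kb, against 4.25 kb over all genes, and the part of this length in the count was not tested. The other GATA factor genes, pnr and grn, had 0 of 2. Of the other forkhead genes 9 of 16 had one: CHES-1-like (11 peaks, the best with a signal of 1704), foxo, the insulin-responsive FoxO gene (4 peaks, 1149), slp2 (975.5), bin, the FoxF gene of visceral mesoderm (664.4), jumu (502.1), croc (336.8), FoxK (322.0), slp1 (272.2) and FoxL1 (176.0). The slp1 peak had no match in replicate 3. Of the other T-box genes 5 of 7 had one: org-1 at its promoter (950.0), Doc2 (466.7), Doc1 (389.5), mid (302.1) and bi (275.7). Several of these sites were stronger than the best fkh peak, at 454.2, and byn was among the 3 of 8 T-box genes without one. Among the genes listed without a peak number, jumu had 3 thresholded peaks, and Doc1, Doc2 and bi had 2 each.

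The other 7 lists hold genes that act upstream of these factors, in the same tissues or after them, and differences between lists were not tested. Of 4 endoderm specification genes, hkb, tll, cad and tor, 0 had a thresholded peak. Of 9 foregut and hindgut patterning genes, 4 had one: bowl, an odd-skipped family gene of the proventriculus and hindgut (777.0), dpp, which encodes a BMP ligand (463.1), wg, which encodes a Wnt ligand (358.5), and odd (160.3). Of 9 midgut and visceral mesoderm patterning genes, 2 had one, hth with 9 peaks (618.2) and the Hox gene abd-A (268.8). Of 6 salivary gland genes, 2 had one, eyg (360.9) and CrebA (226.0), the latter a regulator of secretory capacity. Of 3 amnioserosa genes, 2 had one, ush with 9 peaks (516.0) and tup with 6 (308.4), and ush, which encodes a cofactor of GATA factors, was also the 1 of 4 blood genes. Of 6 genes of gut and fat body differentiation, Adh alone had any, with 2 peaks, the stronger (412.5) with no match in replicate 3. The eyg peak ranked 21786 in replicate 3. Among the genes of these lists given without a peak number, bowl had 3 thresholded peaks, and dpp, wg and CrebA had 2 each.

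The genes whose best peaks had the most similar ranks over the 3 replicate lists, by Euclidean distance of log10 rank among 5337 other genes with a peak in every list, were Sec61alpha for GATAe (distance 0.032), Boh1 for GATAd (0.0374), CG42649 for peb (0.0654), CG14073 for srp (0.0853) and RpS25 for fkh (0.0939). The ranks of Sec61alpha were 1786, 2873 and 2069 in replicates 1, 2 and 3, and those of RpS25 were 890, 2208 and 539. The likeness rests on 3 lists and concerns rank alone. With no peak in replicate 2, byn could not be matched.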

How the data were processed

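Peak lists of tap-eGFP chromatin immunoprecipitation were used for 3 replicates, their pool and a thresholded set, in dm6. Per notes deposited beside the samples, a replicate list was made from 1 alignment and 1 control alignment, the pooled list from the 3 alignments and that control, and the thresholded set from these by the irreproducible discovery rate (IDR). For the aligner, the peak caller, their versions and the cutoff of the IDR, names and values were not given in the sources used here. Each deposited list gives a signal value and, by the file format, the −log10 of a q-value per peak. The 4336 thresholded peaks were the strongest of the pooled list, and 3243 shared its highest −log10 q, so peaks were ranked by signal within each list. The lists give no read counts, so depth is unknown.

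Summits were assigned to the nearest protein-coding TSS of Ensembl release 115 on 6 chromosome arms (equal distances went to the lower coordinate), and no peak ended beyond its arm. Classes were set in the order promoter (500 bp of any TSS), 5′ UTR, coding exon, 3′ UTR, intron, noncoding transcript and intergenic. The assignment equalled an exhaustive search at 2000 of 2000 simulated summits. No test was possible with 1 group. Spreads are SDs over 3 replicates, for which nothing states separate collections of embryos, so they may be partly technical. The genes, the related lists and the rule for named genes (the 6 genes, each list gene with a thresholded peak, and the most alike gene) were chosen with earlier results of these data known, and 1 listed symbol, fd64A, was not matched. Alternatives changed the assignment, ranking, promoter window, summit distance, sequence window and replicates used. Python 3.11.15, pandas 2.3.3 and NumPy 2.4.6 were used.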

Additional observations from a re-analysis of the deposited data

How the results depend on the processing

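The count of 5 genes with a thresholded peak, and of 9 peaks, depended most on how a summit is given to a gene. With the nearest TSS of any gene, noncoding ones included, 3 genes had a peak (GATAd, srp and fkh), and with gene bodies extended by 1000 bp on each side 2 genes did, GATAd and fkh, with 2 peaks. The stronger of the thresholded peaks, those above their median rank, left 3 genes and 3 peaks. Leaving out each replicate in turn, the count of genes ranged from 3 to 5, the count of peaks from 4 to 7, and the peaks among the strongest of the remaining replicates from 4 to 7. With a promoter window of 200 bp, 0 peaks were promoter-proximal. With the same shorter cutoff in each replicate list, a mean of 2.0 genes had a peak among the strongest. Of the related genes, 16 in place of 25 had a peak by extended gene bodies. The share of all genes under these settings is not given here, so the counts have no background value beside them. The cause of these differences was not tested. For single genes, leaving out replicate 2 lowered the mean best rank of srp from 2551 to 1371, of fkh from 1082 to 654 and of peb from 4131 to 2685. With it left out, srp came before GATAe and peb before GATAd. The SD gives no yardstick here, since leaving out 1 of 3 values cannot move a mean by 1 SD. Within 50 bp of the summit the motif counts of the 9 peaks were 4 for the E-box, 1 for CATATG, 1 for GATAAG, 1 for TGTTTAC and 0 for GAGAG. No paired analysis was possible because there was 1 group. Depth is unknown, so weak and absent peaks cannot be told apart.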

Other observations

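Some sites outside the thresholded set were among the strongest 4336 peaks of replicate 3 alone. A peak in lncRNA:CR43126, 5473 bp upstream of fkh, was at rank 5726 of the pooled list and ranked 5376 and 1908 in replicates 1 and 3, with no match in replicate 2. A peak 6895 bp upstream of peb, at pooled rank 9544, ranked 3942 in replicate 3 and 19350 in replicate 1, with no match in replicate 2. The replicate 3 list also had a peak 3309 bp upstream of fkh at rank 2939. Replicate 1 had a peak close to it at rank 20011, and replicate 2 had none there. The nearest pooled-list peak, at rank 11561, was matched to another replicate 3 peak, at rank 18840.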
